A study of Homo sapiens with 4 samples.

Results

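The genes described here are the signalling chains of the B-cell receptor and the proteins that act next to it: the receptor chains CD79A and CD79B, the coreceptors CD22 and CD72, the kinases SYK and BTK, the adaptor BLNK and the phospholipase PLCG2. They were taken as every probe set of the deposited table whose platform annotation gives exactly 1 gene symbol among these 8, which gave 20 probe sets of 54675. The samples are Z138 cells, an established human mantle cell lymphoma line, each carrying a stable lentiviral short hairpin RNA. The shControl group holds 2 samples with different scrambled hairpins (shControl.1 and shControl.2), and the shSOX11 group holds 2 samples with different hairpins against the transcription factor SOX11 (shSOX11.1 and shSOX11.3). All of them share the cell line and the stable lentiviral transduction, and no sample without a hairpin was analysed here. Each sample was measured on 1 Affymetrix U133 Plus 2.0 array, as a signal intensity per probe set. Nothing in the labels says that any construct was cultured more than once, so an error within a group is the spread between a pair of hairpins and may be technical.

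The B-cell receptor is a membrane immunoglobulin held together with a heterodimer of CD79A and CD79B. When antigen is bound, tyrosines in the tails of CD79A and CD79B are phosphorylated by SRC family kinases and the kinase SYK docks there. SYK phosphorylates the adaptor BLNK, which brings BTK and PLCG2 together, and PLCG2 then cleaves a membrane lipid into the second messengers that raise calcium and activate protein kinase C. CD22 and CD72 carry inhibitory motifs that recruit the phosphatase PTPN6 and dampen the signal. Mantle cell lymphoma cells often depend on this pathway, and BTK inhibitors are used to treat the disease.

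The series was set up to find transcripts that depend on SOX11, and SOX11 itself was lower with both hairpins against it. Its brightest probe set gave signals of 797 and 787 with the control hairpins and 335 and 339 with the SOX11 hairpins, which left 42.5% of the control level. The groups did not overlap at any of the 3 SOX11 probe sets. SOX11 did not pass the threshold of 0.05 after adjustment over the 11938 genes tested (limma adjusted p = 0.131). Each array had the same trimmed mean signal of 150. The medians were 25.75 and 25.31 with the control hairpins and lower, at 24.3 and 23.9, with the SOX11 hairpins. Beta-actin control probes at the 3′ end outshone those at the 5′ end, a measure of RNA integrity. The ratio was 11.6 with either control hairpin, 7.29 with shSOX11.1 and 5.31 with shSOX11.3. The same ratio for GAPDH was 0.978 and 1.056 with the control hairpins, 1.009 with shSOX11.1 and 1.035 with shSOX11.3. The part of either ratio in any difference given here was not tested. Of 8 B-cell markers 7 lay above the signal threshold of 24.83 on every array, with MS4A1 (CD20) at 8358, 7778, 6823 and 7426. Of these 8, 5 were separated on the lower side (both shSOX11 values below both shControl values, as in 24.9% of all genes) and 0 on the higher (16.2%), and 3 of the 8 (CD79A, CD79B and CD22) are among the genes described here. Of the others, the B-cell transcription factors EBF1 and PAX5 gave 2282 and 2459 against 1578 and 1535, and 1845 and 1666 against 645.5 and 1450. The list median was 2064 and 2062 with the control hairpins and 1112 and 1492 with the SOX11 hairpins, and the sum 33496 and 33899 against 31432 and 27071. Of 12 myeloid markers, the cell type that also uses SYK, BTK and PLCG2, 0 lay above the signal threshold on every array, and CD14 was at or under 5.66. Of the 12, 3 were separated on the lower side and 2 on the higher (24.9% and 16.2% of all genes). Those on the higher side were CSF1R (15.1 and 8.98 against 25.7 and 28.9) and CSF3R (8.51 and 7.67 against 30.6 and 30.3). Of 15 T and NK cell markers 4 lay above the signal threshold on every array. CD3G lay between 128.9 and 207.2 and LAT between 28.5 and 64.9. LCK and CD247 were lower with both SOX11 hairpins (225.7 and 228 against 138.5 and 88.7, and 113.9 and 111.5 against 80.4 and 67.0). Of the 15, 4 were separated on the lower side and 2 on the higher. Those on the higher side were CD4 (13.7 and 12.6 against 42.45 and 19.5) and GZMB, which was under the threshold on every array. The other CD3 chains, CD3D and CD3E, lay between 8.59 and 29.3. Summed over the list, T and NK cell markers were at 754 and 697 with the control hairpins and 567 and 497 with the SOX11 hairpins, and myeloid markers at 204 and 148 against 170 and 167. No marker was listed at exactly 0. The part of any of these lists in the results was not tested.

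Across the 8 genes most signals were lower with the SOX11 hairpins, but no gene passed the test. Each gene was represented by its brightest probe set past a filter (2 or more arrays with a signal over 24.83, which is the median of the whole table). By that probe set 7 of the 8 genes had a lower mean log2 signal on the shSOX11 arrays and BTK a higher one, where 58.1% of all genes tested had a lower mean. The median log2 difference was -0.29 over the 8 genes and -0.06 over the 11938. The count past a limma adjusted p of 0.05 was 0 of 8, against 0% of all genes. At an unadjusted limma p under 0.05 there was 1 of 8, CD79B, where 8.38% of all genes lay there and 4.98% did so on the lower side. Separation of the arrays is a plainer measure: in 4 of the 8 genes (CD79B, CD22, SYK and PLCG2) both shSOX11 values lay below both shControl values, which was so in 24.9% of all genes, and the opposite was seen in 0 of 8, against 16.2%. A gap of 1.5-fold or more in each of the 4 pairings of a SOX11 hairpin with a control hairpin was found in 0 of 8 genes on either side, against 1.93% of all genes on the lower side and 0.762% on the higher. These are bulk samples, so fewer cells with a transcript and less of it per cell cannot be told apart.

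**Figure D1:**
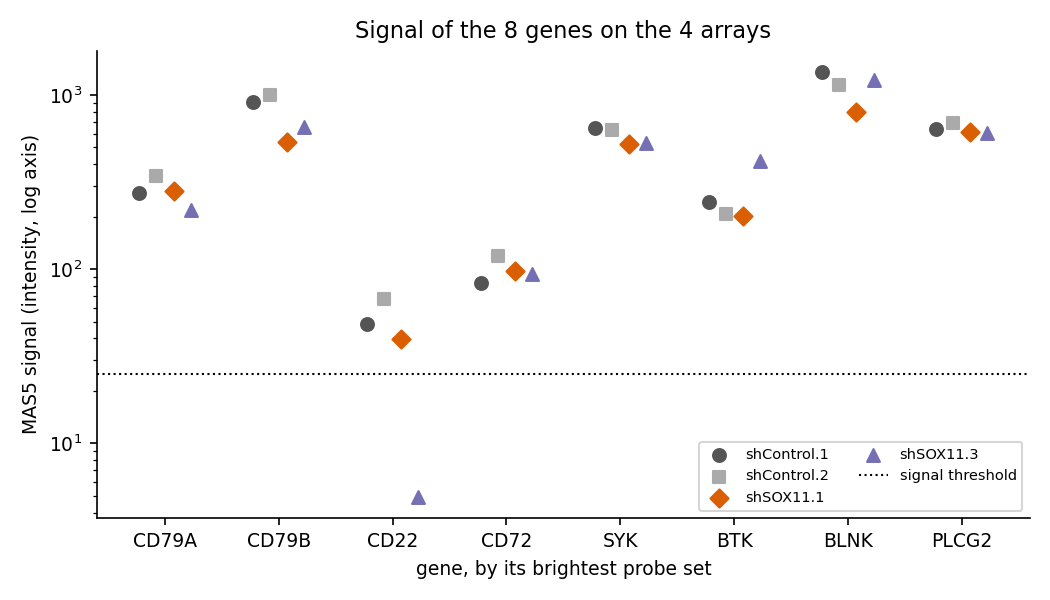
Signal of each gene at its brightest probe set on the 4 arrays (y axis, MAS5 intensity on a log axis; x axis, gene), with the signal threshold of 24.83 as a dotted line. Points of a gene are to be compared with each other and not with those of another gene; CD79B lay at 916 and 992 on the shControl arrays and at 535 and 658 with the SOX11 hairpins.

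Probe sets of one gene probe different stretches of its transcripts, so their directions, not their levels, can be set side by side. Of the 20 probe sets 15 passed the filter, and because a probe set can pass through its bright group alone, these 15 are not a neutral sample of the 20. Both shSOX11 values lay below both shControl values in 6 of the 15, against 21.8% of the 28202 probe sets that passed in the series, and above them in 1 of the 15, against 18.9%. Over all 20 the counts were 10 and 1, against 20.7% and 16.6% of every probe set on the array. After median centring of the arrays, 4 of the 15 were separated on the lower side, against 15.7%. The mean was lower in 13 of the 15, against 53.3%. Past an adjusted limma p of 0.05 were 0 of the 15, against 0.00355% (1 probe set), and 3 lay under an unadjusted 0.05, against 8.26%: a pair for CD79B (205297_s_at and 1555746_at) and 1 for CD22. A gap of 1.5-fold or more in all 4 pairings was found in 1 of the 15, on the lower side, against 1.87%. It was the dim CD79B probe set 1555746_at, which passed the filter through the shControl arrays alone and lay under the threshold on both shSOX11 arrays, so the count carries no weight. Its place among the 6 separated probe sets and the 3 under an unadjusted 0.05 carries none either. The CD22 probe set among those 3 was under the threshold on shSOX11.3, at 4.94. The brightest CD79B probe set did not have a gap of 1.5-fold in all 4 pairings.

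**Figure D2:**
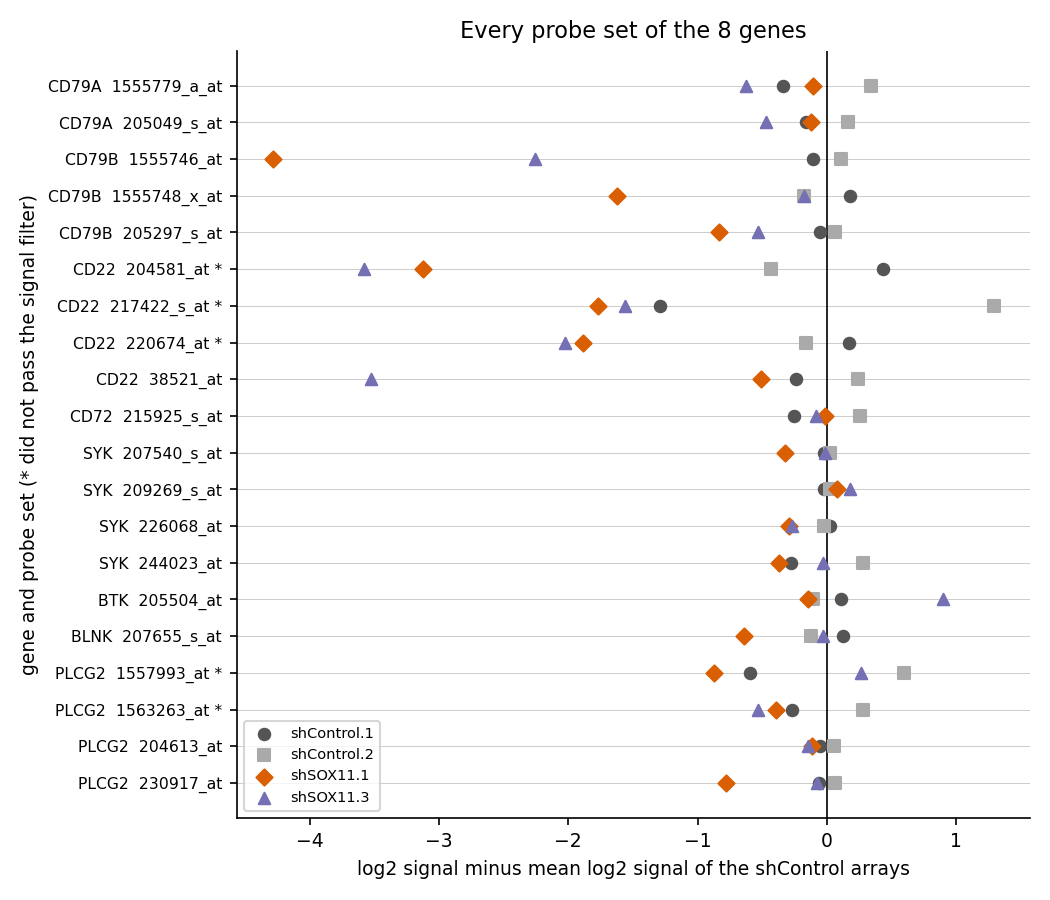
Every probe set of the 8 genes (y axis), with the log2 signal on each array minus the mean log2 signal of the shControl arrays (x axis); a star marks the 5 probe sets that did not pass the signal filter. The points far to the left, of dim CD79B and CD22 probe sets, are signals under the threshold, so their distance from 0 is not a measured size. The BTK probe set on shSOX11.3 lies farthest to the right of any shSOX11 point, at 0.90.

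To show the regulatory sequence in front of these genes, the 250 bases upstream of their annotated starts were read from RefSeq promoters of GRCh38.p14, where 7 of the 8 genes were matched (all but CD79B) with 10 starts. Those of CD79A (a receptor chain), CD22 (4 dim probe sets, all lower with the SOX11 hairpins) and BLNK (the adaptor) are printed. They run 5′ to 3′ along the gene. They lie at chr19:41877029-41877278 on the forward strand, chr19:35328937-35329186 on the forward strand and chr10:96271570-96271819 on the reverse strand. Capitals mark matches on either strand to any of 5 motifs: AACAAT and ACAAAG, both bound by SOX proteins, the octamer ATTTGCAT, the E-box CAGGTG and the ETS core CCGGAA. No matches overlapped in these windows.
CD79A: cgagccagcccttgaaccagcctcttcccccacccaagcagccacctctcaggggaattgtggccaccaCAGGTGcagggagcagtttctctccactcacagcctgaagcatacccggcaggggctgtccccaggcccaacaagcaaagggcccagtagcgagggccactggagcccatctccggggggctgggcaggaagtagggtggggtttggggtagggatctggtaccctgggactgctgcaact
CD22: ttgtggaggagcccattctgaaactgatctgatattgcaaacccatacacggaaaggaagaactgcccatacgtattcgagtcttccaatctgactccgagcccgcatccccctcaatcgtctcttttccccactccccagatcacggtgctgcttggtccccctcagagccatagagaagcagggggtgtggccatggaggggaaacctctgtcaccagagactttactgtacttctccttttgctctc
BLNK: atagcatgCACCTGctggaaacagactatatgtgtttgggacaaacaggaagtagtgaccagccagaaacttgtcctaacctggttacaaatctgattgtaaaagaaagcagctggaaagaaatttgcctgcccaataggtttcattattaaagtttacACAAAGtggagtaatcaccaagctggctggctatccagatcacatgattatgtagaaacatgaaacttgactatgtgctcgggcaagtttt

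BLNK was the 1 gene with a SOX-type match, ACAAAG at 91 to 86 bases before its start, a form found in 13.7% of 35116 promoter windows of this length. AACAAT was in 0 of the 10 windows, against 8.98% of all. An E-box stood in 4 of the 10 windows, those of CD79A, BLNK, PLCG2 and 1 of 3 SYK starts, against 17.5% of all. The CD22 window held none of the 5 motifs, and the octamer (1.63% of all windows) and the ETS core (14.5%) were in 0 of the 10. A match is a run of letters and not a shown binding site, and the absence of one covers these windows alone.

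The receptor chains came first. CD79B, which carries an activation motif in its tail, had 3 probe sets, all with lower means on the shSOX11 arrays. Its brightest (205297_s_at) gave 916 on shControl.1, 992 on shControl.2, 535 on shSOX11.1 and 658 on shSOX11.3. Both SOX11 hairpins were thus below both controls, at 56.1% and 69.0% of the control mean. The log2 means were 9.90 ± 0.08 and 9.21 ± 0.21 (SD, n = 2 each), a difference of -0.68 (SE 0.17, 95% interval -1.06 to -0.31). The unadjusted limma p was 0.00294, which placed CD79B 93rd of the 11938 genes, and after adjustment the limma p was 0.377.

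The other CD79B probe sets come from a different transcript record and were much dimmer. The first of them (1555746_at) gave 36.5 and 42.3 with the control hairpins and 2.02 and 8.23 with the SOX11 hairpins, where it was under the signal threshold, so the drop is given as a bound of at least 1.58-fold, with a limma adjusted p of 0.550 over the probe sets. The last (1555748_x_at), of the type marked for possible cross-hybridization, gave 59.0 and 46.2 against 17.0 on shSOX11.1 and 46.2 on shSOX11.3. There shSOX11.3 equalled the lower control to 3 digits and the groups overlapped. With the mean of its probe sets in place of the brightest, CD79B had a log2 difference of -1.62 (limma adjusted p = 0.505), a value led by the dim probe sets.

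CD79A, the partner chain in the heterodimer, did not separate. Its brighter probe set (205049_s_at) gave 272 and 341 with the control hairpins and 279 and 220 on shSOX11.1 and shSOX11.3. The shSOX11.1 value lay between the controls and the shSOX11.3 value below both. The log2 means were 8.25 ± 0.23 and 7.95 ± 0.24 (SD, n = 2 each), a difference of -0.30 (SE 0.20, 95% interval -0.76 to 0.16, limma adjusted p = 0.677). The second CD79A probe set (1555779_a_at) showed the same order of the 4 arrays, with 233 and 372 against 273 and 191. The interval of CD79A includes the CD79B difference, and whether the chains differ from each other was not tested. The hairpin with the lower CD79B signal was shSOX11.1, and the one with the lower CD79A signal was shSOX11.3.

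CD22, a sialic acid-binding inhibitory coreceptor, was dim throughout. At each of its 4 probe sets both SOX11 hairpins lay below both controls, which was so in 20.7% of every probe set on the array. The 1 that passed the filter (38521_at) gave 48.2 on shControl.1, 67.0 on shControl.2, 39.8 on shSOX11.1 and 4.94 on shSOX11.3. One SOX11 hairpin, shSOX11.1, lay just below the lower control and the other under the signal threshold, so the hairpins themselves stood far apart. The log2 difference of -2.02 (SE 0.89, 95% interval -4.06 to 0.03, limma adjusted p = 0.587) became -0.79 with a pseudocount of 32, and it was -0.51 on shSOX11.1 alone and -3.52 on shSOX11.3 alone. A further probe set (204581_at) gave 44.8 and 24.7 with the control hairpins and 3.82 and 2.78 with the SOX11 hairpins. It missed the filter by 1 array, and its bound, taken from the control mean, is at least 1.34-fold lower. That bound rests on shControl.1, since shControl.2 was itself just under the threshold. The remaining pair (217422_s_at and 220674_at) lay under the threshold on all 4 arrays, between 2.01 and 16.7. It gives no fold, and the order of its arrays carries no weight.

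CD72, a coreceptor of the C-type lectin family with an inhibitory motif, had 1 probe set (215925_s_at). It gave 83.2 and 118 with the control hairpins and 98.0 and 93.5 with the SOX11 hairpins, so both SOX11 hairpins lay between the controls. The log2 difference was -0.05 (SE 0.26, 95% interval -0.64 to 0.54, limma adjusted p = 0.963) and turned to 0.03 with median centring. An interval of this width does not show that CD72 was unchanged.

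SYK, the kinase that docks on the phosphorylated receptor chains, had 4 probe sets, all past the filter and not in accord. The brightest (226068_at) gave 649 and 631 with the control hairpins and 521 and 530 with the SOX11 hairpins. Here the arrays of each group lay close together and the groups apart, as the log2 means of 9.32 ± 0.03 against 9.04 ± 0.02 show (SD, n = 2 each). The difference of -0.28 (SE 0.15, 95% interval -0.63 to 0.06) did not pass (limma adjusted p = 0.620), since limma sets a gene's own spread against that of all genes of like signal. A second (207540_s_at) gave 462 and 476 against 375 on shSOX11.1 and 463 on shSOX11.3, with shSOX11.3 between the controls. Another (244023_at) overlapped too, with 109 and 159 against 101 and 129. The last (209269_s_at) was separated on the higher side by a small margin, at 65.9 and 68.1 against 70.5 and 75.8, a log2 difference of 0.13 (SE 0.26).

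BTK, the kinase targeted by drugs in mantle cell lymphoma, was the 1 gene of the 8 with a higher mean, and it rested on a single array. Its 1 probe set (205504_at) gave 241 on shControl.1, 208 on shControl.2, 202 on shSOX11.1 and 417 on shSOX11.3. Thus shSOX11.1 lay just below both controls and shSOX11.3 above them, at 90.2% and 186.3% of the control mean. The log2 difference between the groups was 0.37 (SE 0.31, 95% interval -0.34 to 1.08, limma adjusted p = 0.727). Without shSOX11.1 it was 0.90 and without shSOX11.3 it was -0.15.

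BLNK, the adaptor that SYK phosphorylates, differed with the other hairpin. Its 1 probe set (207655_s_at) gave 1353 and 1142 with the control hairpins and 798 and 1218 on shSOX11.1 and shSOX11.3. The first hairpin was at 64.2% of the control mean and the second, between the controls, at 98.0%. The log2 difference was -0.33 (SE 0.21, 95% interval -0.82 to 0.15, limma adjusted p = 0.664).

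PLCG2, the phospholipase at the end of this first stage, had 4 probe sets, each with a lower mean. The brightest (204613_at) gave 639 and 690 with the control hairpins and 612 and 601 with the SOX11 hairpins, separated by a narrow margin, with a log2 difference of -0.13 (SE 0.15, 95% interval -0.48 to 0.21, limma adjusted p = 0.808). With median centring the difference was -0.05. A second (230917_at) gave 352 and 383 against 213 on shSOX11.1 and 348 on shSOX11.3. As with BLNK, shSOX11.1 was the lower hairpin, at 58.1% of control, and shSOX11.3 was near it, at 94.7%. Unlike BLNK, both SOX11 hairpins lay below both controls. The other pair did not pass the filter: 1563263_at gave 24.6 and 36.0 against 22.6 and 20.5, and 1557993_at lay between 6.28 and 17.4 with overlapping groups.

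**Figure D3:**
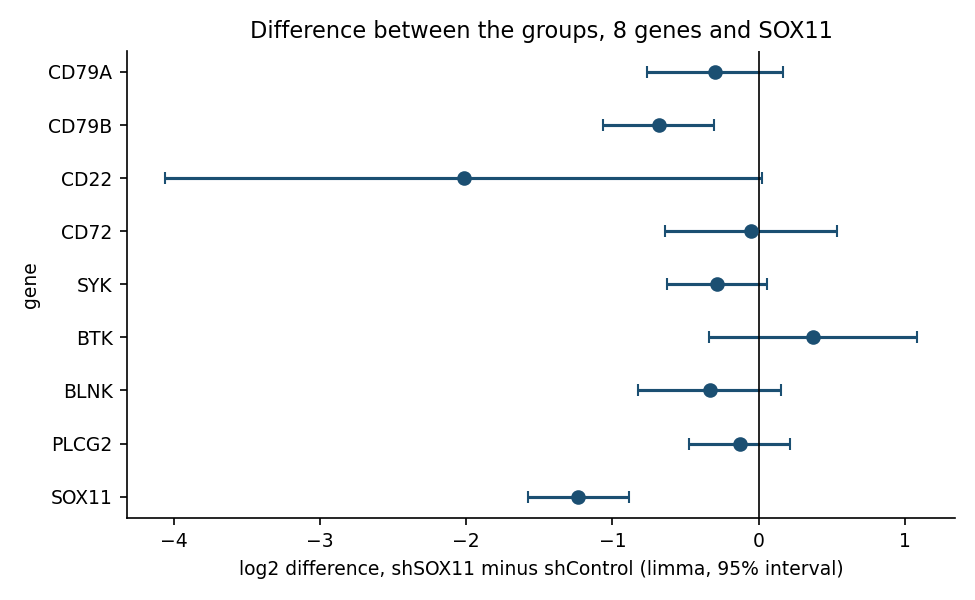
Difference between the groups in log2 signal (x axis, shSOX11 minus shControl) for the 8 genes and SOX11 (y axis), with the 95% interval of limma as bars, unadjusted for the number of genes. Of the 8 genes CD79B alone had an interval clear of 0, from -1.06 to -0.31, and CD22 had the widest, from -4.06 to 0.03.

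The SOX11 hairpins gave unlike values at several of these genes. The SOX11 signal left by shSOX11.1 and shSOX11.3 was 42.3% and 42.8% of control at the brightest SOX11 probe set, 39.0% and 52.8% at another, and 44.1% and 29.4% at the last, so neither hairpin was lower at each. Against the control mean, the median log2 difference over the 8 genes was -0.22 for the first hairpin and -0.21 for the other, while that over all genes was -0.00431 and -0.10; both comparisons use the same shControl arrays. Below the control mean lay 8 of the 8 genes on shSOX11.1 and 7 of the 8 on shSOX11.3, against 6036 and 7102 of all 11938. CD79B was at -0.83 and -0.53 and SYK at -0.30 and -0.27, though the SYK probe set 209269_s_at was higher with both (0.07 and 0.18). BLNK was at -0.64 on shSOX11.1 and -0.03 on shSOX11.3, BTK at -0.15 and 0.90, and CD22 at -0.51 and -3.52. Over all genes, the log2 difference within a group had a median absolute deviation of 0.175 for the pair of control hairpins and 0.285 for the pair of SOX11 hairpins. With 1 array left out, the error comes from the remaining pair of the other group, so no test result is given for these fits. The CD79B difference then ran from -0.83 to -0.53, that of CD22 from -3.52 to -0.51 and that of BTK from -0.15 to 0.90. The count of member probe sets separated on the lower side, 6 of 15 with 4 arrays, was 11 without shControl.1 and 11 without shSOX11.3, against 34.5% and 38.3% of all probe sets. It was 8 without shControl.2 and 8 without shSOX11.1, against 34.7% and 41%.

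Among the 11937 other genes tested, those whose 4 values lay nearest to CD79B, each gene set against its own control mean, were LEF1-AS1, C17orf100, MYO5C, CCNK and VAT1, at Euclidean distances of 0.0731 to 0.0890 log2 units over the 4 arrays. CCNK, a cyclin that pairs with transcriptional kinases, gave 644 and 683 with the control hairpins and 394 and 459 with the SOX11 hairpins. For CD79A they were MUC5AC, PA2G4, BORCS8, THTPA and SP4, at 0.0342 to 0.0608. With 4 arrays many genes lie this near by their number alone, and nothing is read from these neighbours.

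Other genes of the pathway, in 5 lists written from textbook knowledge, were set beside the 8. Of 101 genes listed 83 were tested, 54 with lower and 29 with higher means, where 58.1% of all genes had a lower one, and their median log2 difference was -0.15. Past limma's adjusted 0.05 were 0 of 83. At an unadjusted p under 0.05 there were 14, of which 13 were lower and 1 higher, against 8.38% of all genes in either direction and 4.98% on the lower side. Of the 83, 27 were separated on the lower side, against 24.9% of all genes, and 9 on the higher, against 16.2%. The counts under an unadjusted p in the single lists below are to be read against the same 8.38% and 4.98%.

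Surface receptors and coreceptors showed little. Of 12 tested 9 had lower means, the median was -0.12, and 0 lay under an unadjusted limma p of 0.05. The smallest p belonged to IGKC, the kappa light chain constant region, at 525 and 446 with the control hairpins and 396 and 393 with the SOX11 hairpins (log2 difference -0.30, SE 0.17); its probe set is of the cross-hybridizing type. CD81, a tetraspanin membrane protein, gave 3843 and 4111 against 3860 and 3239, and FCRL3, an Fc receptor-like protein, was close to the threshold at 32.6 and 22.1 against 8.31 and 25.5. IGHM, the heavy chain of the receptor itself and named here after its values were seen, gave 9628 and 10433 against 9823 and 8677 (-0.12, SE 0.14).

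Among 19 proximal kinases, adaptors and lipid enzymes 13 had lower means, with a median of -0.14, and 4 lay under an unadjusted p of 0.05, all lower, against 4.98% of all genes. Among these 4 was VAV3, named after its values were seen, at 45.4 and 45.7 against 3.85 and 18.7. It passed the filter through the shControl arrays alone, so its place in the count carries no weight. FGR, a SRC family kinase, gave 143 and 125 with the control hairpins and 85.9 and 69.1 with the SOX11 hairpins (log2 difference -0.79, SE 0.24, limma adjusted p = 0.446). PIK3CD, the catalytic subunit of the leukocyte phosphoinositide kinase, gave 1815 and 1901 against 1393 and 1324 (-0.45). SHC1, an adaptor that couples receptors to RAS, gave 1042 and 1055 against 849 and 661 (-0.48), but only 1 of its 2 probe sets past the filter had a lower mean. At the brightest probe set of each of these named genes the groups did not overlap. Of the 19, 6 were separated on the lower side and 1 on the higher, against 24.9% and 16.2% of all genes.

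Negative regulators lay on both sides. Of 15 tested 9 had lower and 6 higher means, with a median of -0.15, and 3 lay under an unadjusted p of 0.05, 2 of them lower, against 8.38% of all genes. DOK3, an adaptor that restrains calcium signalling in B cells, gave 851 and 776 with the control hairpins and 560 and 492 with the SOX11 hairpins (log2 difference -0.63, SE 0.16, limma adjusted p = 0.394). PTPN6, the phosphatase recruited by CD22 and CD72, gave 245 and 290 against 193 and 197 (-0.45, SE 0.18, limma adjusted p = 0.567). PTPN22, a phosphatase that acts on SRC and SYK family kinases, went the other way, at 188 and 227 against 258 and 360 (0.56, SE 0.22, limma adjusted p = 0.546).

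The distal part of the pathway (25 tested, 15 lower and 10 higher, median -0.12) had 2 genes under an unadjusted p of 0.05, both lower, which is near the 8.38% of all genes. NFATC1, a calcium-dependent transcription factor, gave 215 and 202 with the control hairpins and 144 and 153 with the SOX11 hairpins (log2 difference -0.49, SE 0.19), and all 4 of its probe sets past the filter had lower means. MAPK3, the kinase also called ERK1, gave 78.7 and 114 against 60.0 and 59.5 (-0.67, SE 0.29), and PRKCD, a diacylglycerol-activated kinase, 118 and 129 against 107 and 60.5 (-0.62, SE 0.30). Limma adjusted p was 0.544, 0.587 and 0.598.

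Genes induced by receptor signalling had the lowest median of the 5 lists, -0.42 over 12 tested (8 lower and 4 higher), with 5 under an unadjusted p of 0.05, all lower, against 4.98% of all genes. CD69, an early activation antigen, gave 226 and 252 with the control hairpins and 24.6 and 129 on shSOX11.1 and shSOX11.3 (log2 difference -2.09, SE 0.62, limma adjusted p = 0.446), the shSOX11.1 value being under the threshold. The immediate early gene IER2 gave 711 and 648 against 479 and 389 (-0.65, SE 0.17) and EGR1, a zinc finger transcription factor, 236 and 146 against 75.1 and 97.1 (-1.12, SE 0.28), each with a limma adjusted p of 0.394. MYC, named after its values were seen, had a higher mean, at 5501 and 5740 against 7339 and 5729. The LCK, CD247 and beta-actin values given above differed between the same groups. CD4, over the signal threshold on shSOX11.1 alone, and GZMB, over it on no array, were higher with the SOX11 hairpins. The GAPDH ratios with the SOX11 hairpins lay between those of the controls. The part of any of these in the differences was not tested.

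**Figure D4:**
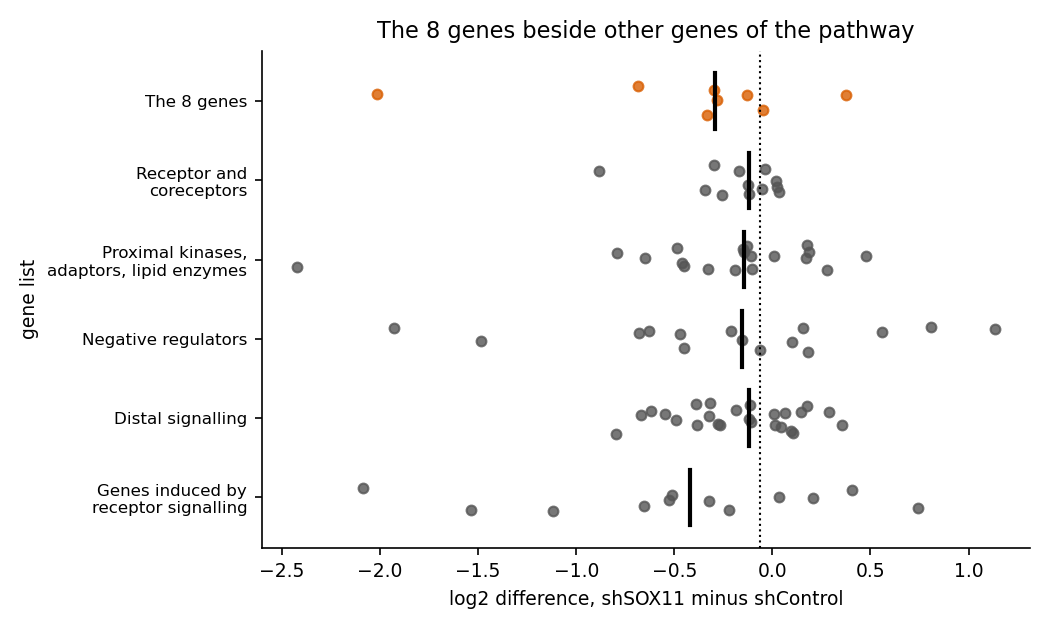
Log2 difference between the groups (x axis, shSOX11 minus shControl) for the 8 genes and for each tested gene of 5 other lists of the pathway (y axis), 1 point per gene with a bar at the list median; vertical jitter has no meaning, and the dotted line is the median of all genes, -0.06. List medians lie between -0.42 and -0.12, and that of the 8 genes at -0.29.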

How the data were processed

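Total RNA of 4 samples was hybridised to 4 one-colour arrays with biotin label, per the labels. The authors deposited linear MAS5 intensities, 1 for each probe set and array, from Affymetrix Expression Console per the submitters' processing notes; program versions and the scaling target are not given in the sources here. MAS5 subtracts mismatch signals, so dim values carry more error, and no detection calls were used. The number of arrays limits the precision.

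The analysis used log2 of these signals with no pseudocount. After leaving out 62 control probe sets, those above 24.83 on at least 2 arrays were kept (28202), and a gene with 1 annotated symbol was its kept probe set of highest mean (11938 genes). Groups were compared with limma 3.58.1 in R 4.3.3 (lmFit, eBayes with trend, 2 residual degrees of freedom, 8.39 after moderation), with two-sided p-values adjusted by Benjamini-Hochberg over every gene or every kept probe set; the steps were tested on simulated data. With 2 arrays against 2, the smallest two-sided p of an exact permutation test is 0.333. A group under the threshold on both arrays has a bound only: the other group's mean over 24.83. Outside the 8 genes, the 3 genes of smallest p per list were named, and the 5 nearest patterns to CD79A and CD79B. The members and lists were chosen with earlier results of these data known. Other settings were a pseudocount of 32, quantile normalization, median centring, filters at other percentiles (35 and 65) or none, limma without trend or robust, a threshold of 0.10, averaged probe sets per gene, no _x_at probe sets, and each array left out.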

Additional observations from a re-analysis of the deposited data

How the results depend on the processing

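The count of the 8 genes past limma's adjusted 0.05 stayed at 0 in the settings with all 4 arrays, and so did the counts of member probe sets and of the 5 pathway lists. In these settings 0% of all genes passed, and at most 1 probe set of the series, so the counts do not set the members apart. That share was not counted with averaged probe sets or without _x_at probe sets. With no filter, 10 of 20 member probe sets were separated on the lower side in place of 6 of 15. The CD72 difference of -0.05 turned to 0.0331 with median centring, for the gene and for its probe set. With 1 array left out, the count of genes past the threshold ranged from 0 to 3, that of probe sets from 0 to 2, that of probe sets separated on the lower side from 8 to 11 and on the higher side from 1 to 2. The list counts then ranged from 0 to 2 (receptors and coreceptors), 0 to 5 (proximal kinases and adaptors), 0 to 2 (negative regulators), 0 to 1 (distal signalling) and 0 to 2 (induced genes), and the SOX11 difference from -1.24 to -1.23. Members, list genes and genes of the whole series passed only where a SOX11 hairpin was left out. The error then came from the pair of shControl arrays, so nothing is read from the counts past the threshold. The separated counts are of 15 member probe sets, against 34.5% to 41% of all probe sets on the lower side. That share was not counted on the higher side. Left-out differences turned sign for BTK (-0.15 to 0.90, reversed without shSOX11.3), for CD72 (-0.30 to 0.20, reversed without shControl.2) and for the SYK probe set 244023_at (-0.48 to 0.0739, reversed without shControl.2). CD22 could not be tested with the filter at the 65th percentile. No paired analysis was possible because the groups share only construct number 1, which names different hairpins. Probe sets near or under 24.83, those of CD22 and the dim ones of CD79B and PLCG2, are limited by their signal.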
